A study of Mus musculus with 10 samples.

Results

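The genes described here encode 10 parts of the machinery with which the gut lining and its immune cells sense bacteria and double-stranded RNA: the Toll-like receptors Tlr1, Tlr2, Tlr3, Tlr4 and Tlr5, the lipopolysaccharide co-receptor Cd14, the cytosolic receptors Nod1 and Nod2, the NOD-like receptor Nlrp6 and the adaptor Myd88. They were chosen by name, with earlier results of these data known. All 10 were among the 16875 gene names measured by RNA sequencing in 10 colon tumors of mice. Expression was given as FPKM, a unit that divides the sequenced fragments of a gene by transcript length and by the amount of sequence per tumor.

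Toll-like receptors are membrane proteins with an ectodomain that binds a microbial molecule and a cytosolic domain that recruits adaptors, above all Myd88, to activate NF-kB and mitogen-activated kinases. Nod1 and Nod2 bind peptidoglycan fragments in the cytosol and signal through the kinase Ripk2, while Nlrp6 is a NOD-like receptor of the intestinal epithelium linked to inflammasomes. In the colon these receptors are found on epithelial cells as well as on macrophages, neutrophils and other cells of the mucosa, which is in constant contact with bacteria.

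By the genotype labels, all tumors came from mice whose Wls gene, needed for the secretion of Wnt ligands, is flanked by loxP sites (Wls flox/flox), and the titles of the control tumors read Wls WT. The study names C57BL/6 as the strain of its AOM/DSS mice. Tumors were induced with azoxymethane (AOM), a colon carcinogen, followed by 3 cycles of 2% dextran sodium sulfate (DSS), which damages the colon lining. The 5 control tumors retained Wls, and the study describes tumors without tamoxifen as controls unless it states otherwise. The 5 Villin-Wls cKO tumors carried Villin-Cre ERT2, a tamoxifen-dependent recombinase driven by the villin promoter in the intestinal epithelium, and the mice had received 5 tamoxifen injections, the first 30 days before collection. This driver is not active in stromal and immune cells, which share the tumor. The tumors were macrodissected, so each library mixes epithelial, stromal and immune cells. How many mice gave these tumors is not stated for the libraries, n counts tumors, and p-values measure the spread between these tumors only.

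Wls itself fell from 72.9 ± 7.06 FPKM (SD, n = 5) to 6.37 ± 4.89, with a log2 change of -3.59 and a limma adjusted p of 0.000337. The groups also differed in Xist, which was at most 0.420 FPKM in control tumors and between 439 and 701 in Villin-Wls cKO tumors, so that sex and genotype cannot be told apart. None of the 10 genes lies on a sex chromosome, and an effect of sex on them was not tested. The Cre driver, and tamoxifen if the controls did not receive it, likewise cannot be told apart from the loss of Wls. Villin-Wls cKO tumors 2 and 3 stood apart in Krt5, a keratin of stratified epithelium, with 470 and 669 FPKM against at most 0.315 in the other 8 tumors, and counts are therefore also given without them. The epithelial marker genes summed to 6146 to 8689 FPKM in control and 7547 to 9683 in Villin-Wls cKO tumors and none of them was absent, and Pearson correlations of log2(FPKM + 1) between tumors ranged from 0.919 to 0.976. FPKM values do not give the depth of a library. Over all genes tested 1822 passed the threshold, an adjusted p under 0.05, of which 56.3% were higher in Villin-Wls cKO tumors. That share was 77.1% when each tumor was scaled to the same FPKM sum and 44.3% after quantile normalization.

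Of the 10 genes, 7 rose in Villin-Wls cKO tumors and 0 fell. They were Tlr1, Tlr3, Tlr4, Cd14, Nod1, Nod2 and Nlrp6, with log2 changes of log2(FPKM + 1) between 0.55 and 1.85, while Tlr2, Tlr5 and Myd88 did not pass. All 10 passed the filter on low values. Because the genes were chosen with earlier results of these data known, the counts and shares here are a description and not independent support. Over all 16757 genes tested, 6.12% passed with higher values, 4.75% with lower values and 10.9% in either direction. The median log2 change of the 10 genes was 0.65, against 0.0073 over all genes tested. For 5 of the 10 the lowest Villin-Wls cKO tumor lay above the highest control tumor, compared with 5.33% of all genes, and 0 of the 10 were separated in the other direction, compared with 4.76%. Because these are whole tumors, more cells of a type and more RNA per cell cannot be told apart for any of them.

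**Figure D1:**
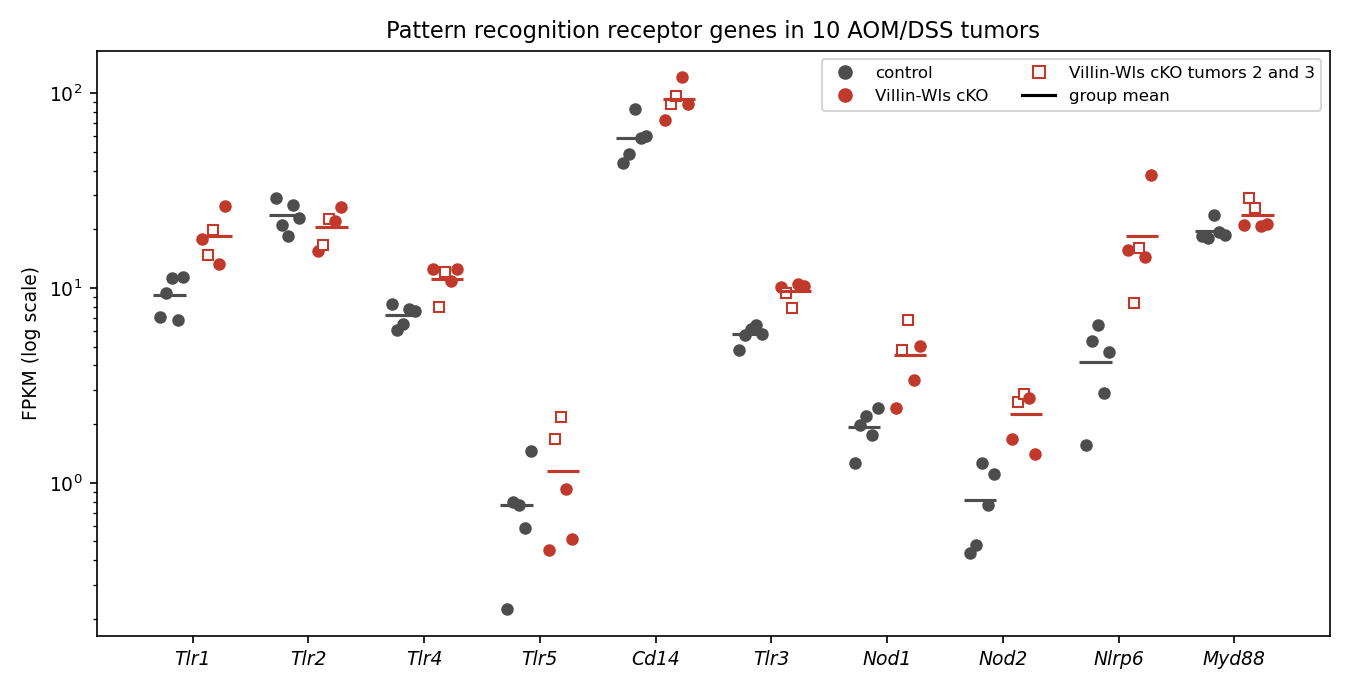
FPKM on a log axis in each of the 5 control and 5 Villin-Wls cKO tumors for the 10 genes along the horizontal axis, with 1 symbol per tumor, open squares for Villin-Wls cKO tumors 2 and 3, and a line at the group mean. The points of the groups do not overlap for Tlr1, Tlr3, Nod1, Nod2 and Nlrp6, with Nod1 parted by less than the size of a point, and they overlap for the other 5 genes.

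Among receptors at the cell surface, Tlr1 forms a heterodimer with Tlr2 that recognizes triacylated bacterial lipopeptides. It measured 7.08, 9.37, 11.3, 6.88 and 11.4 FPKM in control tumors 1 to 5 and 17.8, 14.8, 19.8, 13.3 and 26.3 FPKM in Villin-Wls cKO tumors 1 to 5. All Villin-Wls cKO tumors were above all control tumors, and tumor 5 of the Villin-Wls cKO group was the highest. The mean went from 9.20 ± 2.18 to 18.4 ± 5.11 FPKM, a log2 change of 0.92 (SE 0.20, 95% interval 0.48 to 1.35, limma adjusted p = 0.0153). Tlr1 (chromosome 5, 64924679 to 64933563, minus strand, GENCODE M21 on GRCm38) passed in each fit that left out 1 tumor, but without Villin-Wls cKO tumors 2 and 3 its change of 0.96 had an adjusted p of 0.0539.

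Tlr2, the partner of Tlr1 and of Tlr6 in lipopeptide sensing, had 29.0, 21.1, 18.5, 26.7 and 22.8 FPKM in the control and 15.5, 16.7, 22.5, 22.0 and 26.0 in the Villin-Wls cKO tumors. The ranges of the groups overlapped over most of their width, and the highest value belonged to control tumor 1. The means were 23.6 ± 4.22 and 20.5 ± 4.36 FPKM, and the log2 change was -0.20 (SE 0.16, 95% interval -0.55 to 0.16, limma adjusted p = 0.484). Tlr2 lies on chromosome 3 from 83836272 to 83841767 on the minus strand. It was the single member of the 10 with a lower mean in Villin-Wls cKO tumors.

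Tlr4 recognizes lipopolysaccharide together with Ly96 and Cd14. Its level was 8.31, 6.11, 6.50, 7.79 and 7.65 FPKM in control tumors and 12.5, 7.98, 12.1, 10.9 and 12.5 FPKM in Villin-Wls cKO tumors. Every Villin-Wls cKO tumor except tumor 2 was above the control range, and tumor 2 lay just below control tumor 1. The mean rose from 7.27 ± 0.928 to 11.2 ± 1.91 FPKM, which is a log2 change of 0.55 (SE 0.13, limma adjusted p = 0.0236). The gene spans chromosome 4 from 66827584 to 66930284 on the plus strand. Its adjusted p was between 0.0532 and 0.0598 without control tumor 2 or without Villin-Wls cKO tumor 1, 3 or 5, and 0.0162 without Villin-Wls cKO tumors 2 and 3.

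Cd14, encoded on chromosome 18, hands lipopolysaccharide to Tlr4 and Ly96. It gave 43.7, 48.9, 83.4, 58.9 and 60.3 FPKM in control and 73.0, 87.9, 96.7, 121 and 88.2 FPKM in Villin-Wls cKO tumors. Control tumor 3 exceeded Villin-Wls cKO tumor 1, and the remaining tumors of the groups were separated. The mean rose from 59.0 ± 15.3 to 93.3 ± 17.5 FPKM, with a log2 change of 0.67 (SE 0.18, limma adjusted p = 0.0357). The call was lost without control tumor 1, 2, 4 or 5 and without Villin-Wls cKO tumor 2, 3, 4 or 5, with log2 changes of 0.57 to 0.68 and adjusted p between 0.0577 and 0.0883. It was also missed after quantile normalization (adjusted p = 0.0502) and without Villin-Wls cKO tumors 2 and 3 (adjusted p = 0.123). Ly96, the secreted partner of Tlr4, had 14.9 ± 1.57 and 19.9 ± 3.51 FPKM and did not pass (adjusted p = 0.0699).

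Tlr5 is the receptor for bacterial flagellin. It was the least expressed of the 10 genes, with 0.225, 0.799, 0.772, 0.586 and 1.46 FPKM in control and 0.453, 1.68, 2.17, 0.930 and 0.517 FPKM in Villin-Wls cKO tumors. The Villin-Wls cKO range covered most of the control range, and its highest values were in tumors 2 and 3. The log2 change was 0.25 (SE 0.26, 95% interval -0.32 to 0.82, limma adjusted p = 0.598), and it became -0.09 without those tumors. Tlr5 lies on chromosome 1 from 182954788 to 182976044 on the plus strand.

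Tlr3 sits in endosomes, binds double-stranded RNA and signals through Ticam1 rather than Myd88. Control tumors had 4.81, 5.74, 6.16, 6.48 and 5.81 FPKM and Villin-Wls cKO tumors had 10.1, 9.38, 7.90, 10.5 and 10.2 FPKM. The groups did not overlap, and within each group the values lay close together. The mean rose from 5.80 ± 0.629 to 9.60 ± 1.03 FPKM, a log2 change of 0.64 (SE 0.10, 95% interval 0.42 to 0.86). Its limma adjusted p of 0.00306 was the smallest among the 10 genes, and its change stayed between 0.58 and 0.73 under all alternatives run. The gene lies on chromosome 8 from 45395665 to 45411080 on the minus strand, where exons of the antisense gene Gm45542 overlap it. Whether strand was used in quantification is not stated, so reads of these genes may not have been separated.

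Nod1 senses peptidoglycan fragments found mainly in Gram-negative bacteria. Its values were 1.26, 1.99, 2.19, 1.76 and 2.41 FPKM in control and 2.41, 4.82, 6.87, 3.36 and 5.06 FPKM in Villin-Wls cKO tumors. The groups were barely separated, between control tumor 5 at 2.41373 and Villin-Wls cKO tumor 1 at 2.41412, while the other Villin-Wls cKO tumors were clearly higher. The mean went from 1.92 ± 0.443 to 4.50 ± 1.71 FPKM, a log2 change of 0.87 (SE 0.22, limma adjusted p = 0.0284). Leaving out control tumor 1, 2 or 4 or Villin-Wls cKO tumor 2, 3 or 5 gave adjusted p between 0.0555 and 0.0650, and without Villin-Wls cKO tumors 2 and 3 the change was 0.63 (adjusted p = 0.116). Nod1 lies on chromosome 6 from 54923949 to 54972612 on the minus strand.

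Nod2, the receptor for muramyl dipeptide, a peptidoglycan fragment common to most bacteria, was low in control tumors at 0.434, 0.478, 1.26, 0.770 and 1.11 FPKM. Villin-Wls cKO tumors had 1.69, 2.59, 2.87, 2.73 and 1.40 FPKM. Even the lowest Villin-Wls cKO tumor, tumor 5, was above control tumor 3, the highest of its group. The mean rose from 0.812 ± 0.371 to 2.25 ± 0.665 FPKM, a 2.78-fold ratio of means and a log2 change of 0.84 (SE 0.19, limma adjusted p = 0.0171). With values this near to the pseudocount of 1 the change is understated, and it was 1.42 with a pseudocount of 0.1. Nod2 passed in each fit that left out 1 tumor and had an adjusted p of 0.0948 without Villin-Wls cKO tumors 2 and 3. It lies on chromosome 8 from 88647315 to 88688474 on the plus strand.

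Nlrp6 had the largest change of the 10 genes. Control tumors measured 1.56, 5.31, 6.44, 2.89 and 4.67 FPKM, and Villin-Wls cKO tumors measured 15.6, 8.34, 16.0, 14.4 and 37.9 FPKM. All Villin-Wls cKO tumors exceeded all control tumors, with tumor 5 far above the rest and tumor 2 nearest to the control range. The mean rose from 4.17 ± 1.95 to 18.5 ± 11.3 FPKM, a 4.42-fold ratio of means and a log2 change of 1.85 (SE 0.38, 95% interval 1.00 to 2.69, limma adjusted p = 0.0129). It passed under every alternative run, with changes between 1.55 and 2.15. Nlrp6 lies on chromosome 7 from 140920902 to 140929192 on the plus strand.

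Myd88, the adaptor shared by most Toll-like receptors and by the interleukin-1 receptor, had 18.6, 18.1, 23.6, 19.4 and 18.8 FPKM in control and 20.9, 29.0, 25.9, 20.8 and 21.4 FPKM in Villin-Wls cKO tumors. Control tumor 3 lay above Villin-Wls cKO tumors 1, 4 and 5, so the groups overlapped. The means were 19.7 ± 2.22 and 23.6 ± 3.70 FPKM, and the log2 change of 0.24 (SE 0.11) had a limma adjusted p of 0.200. Myd88 lies on chromosome 9 from 119335934 to 119341411 on the minus strand and shares exonic sequence with Acaa1a on the opposite strand. As for Tlr3, reads of the overlapping genes may not have been separated.

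**Figure D2:**
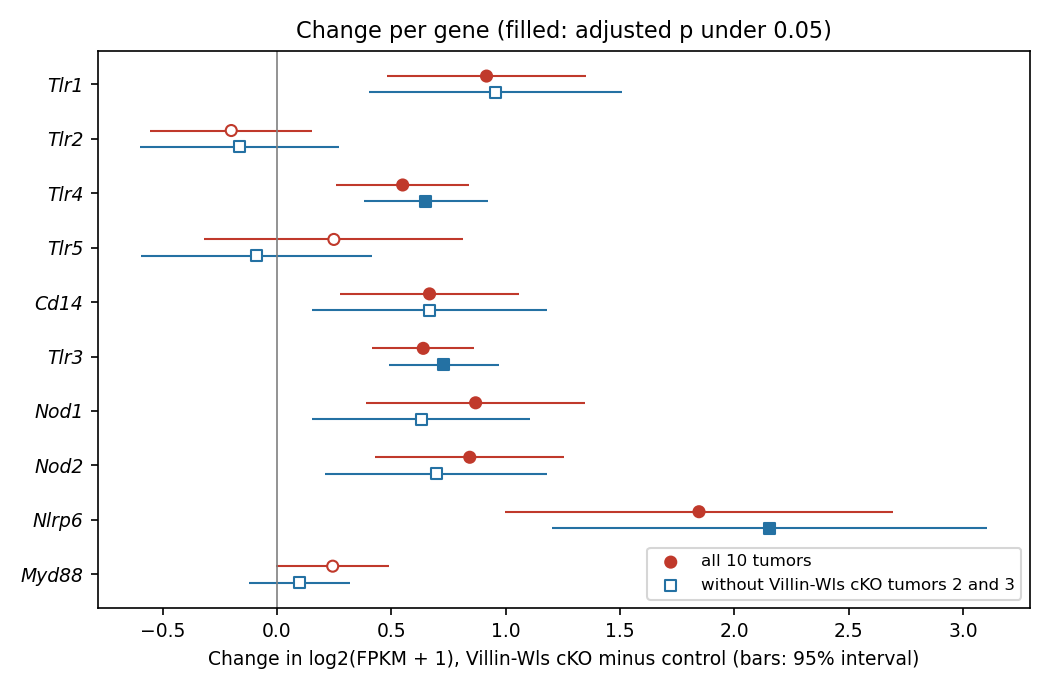
Log2 change of log2(FPKM + 1), Villin-Wls cKO minus control, for each of the 10 genes, with circles for all 10 tumors, squares without Villin-Wls cKO tumors 2 and 3, bars for 95% intervals and filled symbols for genes past the threshold. Nlrp6 is farthest to the right at 1.85, the circles of Tlr2, Tlr5 and Myd88 are open, and the filled squares are Tlr3, Tlr4 and Nlrp6.

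Taken by tumor, 6, 8, 9, 7 and 7 of the 10 genes were above every control tumor in Villin-Wls cKO tumors 1 to 5. Over all genes tested the share was 23.2%, 23.5%, 28.2%, 22.9% and 25.6% in the same tumors. Tumor 3, with 9, was above the control range for every gene except Tlr2. Without Villin-Wls cKO tumors 2 and 3, 3 of the 10 genes passed with higher values, namely Tlr3, Tlr4 and Nlrp6, against 3.9% of all genes with higher values and 6.52% in either direction. Fits that left out 1 tumor gave between 4 and 7 genes past the threshold, with 4 without control tumor 2, without Villin-Wls cKO tumor 3 and without Villin-Wls cKO tumor 5. Tlr1, Tlr3, Nod2 and Nlrp6 passed in all 10 of these fits.

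The order of the levels in FPKM was Cd14, Tlr2, Myd88, Tlr1, Tlr4, Tlr3, Nlrp6, Nod1, Nod2 and Tlr5 in control tumors, from highest to lowest mean. Among neighbours in this order, only the ranges of Cd14 and Tlr2 and those of Myd88 and Tlr1 were apart. In Villin-Wls cKO tumors Cd14, Myd88 and Tlr2 were still the 3 highest, and Nlrp6 moved from the seventh to the fourth place. Its mean of 18.5 FPKM there was raised by tumor 5, it exceeded Tlr1 in 2 of 5 tumors, and its median of 15.6 was below the 17.8 of Tlr1. There the neighbours with ranges apart were Cd14 and Myd88, Tlr1 and Tlr4, and Tlr3 and Nod1.

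Tlr2 acts with Tlr1 and Cd14 with Tlr4, while Nod1 and Nod2 are separate peptidoglycan sensors and Tlr3 does not signal through Myd88. For these 4 pairs the difference of log2(FPKM + 1) was taken within each tumor. Tlr2 exceeded Tlr1 by 1.28 ± 0.54 in control and by 0.16 ± 0.33 in Villin-Wls cKO tumors, a change of -1.12 (exact two-sided permutation test, p = 0.0159, adjusted p = 0.0635 over 4 pairs). Thus the pair was closer to equal in Villin-Wls cKO tumors, though the difference missed the threshold after adjustment. Cd14 exceeded Tlr4 by 2.83 in control and 2.95 in Villin-Wls cKO tumors, and the exact permutation p was 0.667. For Nod2 and Nod1 the difference was -0.70 and -0.73 with an exact permutation p of 0.873, and for Tlr3 and Myd88 it was -1.60 and -1.21 with an exact permutation p of 0.0714. With 5 tumors a side the smallest p this test allows is 0.00794, and 0 of the 4 pairs passed after adjustment.

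The start regions of these genes were searched for motifs bound by factors of the interferon, NF-kB and Wnt pathways. RefSeq windows on GRCm38.p6, from 250 bases before to 50 after a gene's start, were found for 8 of the 10 genes, with 10 windows in all, and Tlr4 and Cd14 were not matched. On both strands, the STAT motif TTCNNNGAA (GAS) was in 3 of the 10 windows and in 8.30% of all 32851 windows. The interferon response core, GAAA, any 2 bases and GAAA, was in 1 of the 10 and in 3.44% of all, the kappa B consensus of NF-kB in 2 of the 10 and in 8.46% of all, and the TCF/LEF core ATCAAAG in 0 of the 10 and in 3.73% of all. A match describes letters and not binding. The stretches below, outside exons and 5′ to 3′ on the gene's strand, are those of Nlrp6, the gene with the largest change, and of the 3 genes with a match outside exons, with matched letters in capitals.
Nlrp6, chr7:140920812-140920901, plus strand: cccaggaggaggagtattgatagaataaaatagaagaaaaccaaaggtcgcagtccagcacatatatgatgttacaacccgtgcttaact
Nod1, chr6:54971800-54971899, minus strand: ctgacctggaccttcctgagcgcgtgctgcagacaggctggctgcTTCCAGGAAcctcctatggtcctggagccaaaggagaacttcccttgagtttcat
Myd88, chr9:119340042-119340109, minus strand: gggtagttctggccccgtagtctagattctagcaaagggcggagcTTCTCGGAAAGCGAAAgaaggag
Tlr2, chr3:83841768-83841826, minus strand: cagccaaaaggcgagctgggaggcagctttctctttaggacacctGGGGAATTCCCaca
In Nod1 the capitals are a GAS match, in the window of a start inside the gene span, while the window at its outer start, chr6:54972563-54972862, holds no match. In Myd88 the capitals are a GAS match that shares bases with an interferon response core. The Myd88 window also belongs to a start inside the gene span, which runs to 119341411. In Tlr2 the capitals are overlapping kappa B matches. The 90 bases before the Nlrp6 start hold no match. Of the 3 genes with a printed match, Nod1 rose and Myd88 and Tlr2 did not pass. Tlr1 has a GAS match and Tlr3 a kappa B match within exons, which are not printed, and both genes rose. Whether a match goes with a change was not tested.

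The neighbouring genes of the pathway were described in 9 lists, in which 128 genes were tested, 31 rose and 2 fell, with a median log2 change of 0.20. With each tumor scaled to the same FPKM sum, 37 rose and 0 fell in limma. The other Toll-like receptors Tlr6, Tlr7, Tlr8, Tlr12 and Tlr13 were at most 3.17 FPKM in any tumor, and 0 of these 5 passed. At an unadjusted limma p under 0.05 there was 1, Tlr6, at 0.508 to 0.873 FPKM in control and 0.771 to 1.26 in Villin-Wls cKO tumors (limma adjusted p = 0.155). Tlr7, Tlr8 and Tlr13 lie on the X chromosome, and the groups differed in Xist. So of the Toll-like receptors tested, higher levels past the threshold were seen for Tlr1, Tlr3 and Tlr4. Tlr9 and Tlr11 were not among the gene names and could not be assessed.

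Of 25 receptor partners, adaptors and kinases, 3 rose and 1 fell, beside 6.12% and 4.75% of all genes tested. The median log2 change was 0.04. Unc93b1, which carries nucleic acid-sensing receptors such as Tlr3 to endosomes, rose from 26.8 ± 2.36 to 38.5 ± 5.04 FPKM with groups that did not overlap (limma adjusted p = 0.00962). The kinase Ikbke and the transcription factor Irf7 rose by log2 changes of 0.42 and 1.01, and Traf3, an adaptor of interferon induction, fell by 0.25 on the log2 scale. Traf3 did not pass in any of the 10 fits that left out 1 tumor, and Irf7 passed in 2. Of 11 genes of the NOD pathway other than the receptors, 0 passed with limma, and the median was -0.03. Ripk2, the kinase of Nod1 and Nod2, had 5.30 ± 0.784 and 6.22 ± 0.520 FPKM (adjusted p = 0.253).

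Among 14 negative regulators, 4 rose and 1 fell, beside 6.12% and 4.75% of all genes, and the median was 0.19. Tnfaip3, the ubiquitin-editing enzyme A20, rose from 11.7 ± 2.26 to 22.0 ± 3.27 FPKM (limma adjusted p = 0.0033). Socs1, an inhibitor of cytokine receptor signalling, rose from 3.19 ± 1.07 to 12.1 ± 4.90 FPKM, and neither it nor Tnfaip3 overlapped between groups. Zc3h12a, an RNase that degrades inflammatory mRNAs, and Irak3, an inhibitory member of the Irak kinases, rose by log2 changes of 1.25 and 0.60. Tollip, which dampens Toll-like receptor signalling, fell from 26.7 ± 1.24 to 21.6 ± 0.805 FPKM, but with each tumor scaled to the same FPKM sum its log2 change went from -0.29 to -0.19 and did not pass (limma adjusted p = 0.191). Irak3 passed in 4 of the 10 fits that left out 1 tumor.

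Of 20 other NOD-like receptors and inflammasome genes, 8 rose and 0 fell, beside 6.12% and 4.75% of all genes, with a median of 0.56. Nlrc5 and Ciita, with log2 changes of 3.59 and 2.30, changed more than Nlrp6, with 1.85. Nlrc5, a transactivator of MHC class I genes, rose from 1.16 ± 0.385 to 25.2 ± 5.91 FPKM with a log2 change of 3.59 (limma adjusted p = 1.92e-06). Ciita, the corresponding factor for MHC class II, rose from 0.533 ± 0.195 to 6.61 ± 1.51 FPKM, and Casp1, the inflammasome protease, from 34.5 ± 5.06 to 72.6 ± 10.7 FPKM. Nlrc4, which assembles an inflammasome in response to flagellin, rose by 0.65 on the log2 scale, beside 0.25 for Tlr5, the surface receptor for flagellin, and the difference between them was not tested. Of 12 NF-kB kinases, subunits and inhibitors, Rel alone rose (log2 change 0.58, limma adjusted p = 0.0298), beside 6.12% of all genes. Rel passed in 3 of the 10 fits that left out 1 tumor.

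Among 19 NF-kB-induced cytokine and acute-phase genes, Cxcl2 and Cxcl3, which did not pass, share all their values and are 1 measurement. The list median was 0.47, and 0 of the 19 fell while 4 rose, beside 4.75% and 6.12% of all genes. The 4 that rose were Nos2, which makes nitric oxide (3.14 ± 2.67 to 51.2 ± 13.5 FPKM), the chemokine Cxcl10 (1.56 to 5.02 FPKM in control and 11.4 to 36.5 in Villin-Wls cKO tumors), the adhesion molecule Icam1 and the cytokine Il1a. Icam1 and Il1a had log2 changes of 0.76 and 0.90. Icam1 passed in 3 and Il1a in 2 of the 10 fits that left out 1 tumor. Of 11 other pattern recognition receptors, 3 rose, beside 6.12% of all genes. The nucleic acid sensor Zbp1 rose from 22.0 ± 4.65 to 133 ± 20.4 FPKM, and the RNA sensors Ifih1 and Dhx58 rose by 0.86 and 0.97, Dhx58 in only 2 of the 10 fits that left out 1 tumor.

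The interferon-induced genes had the largest median of the lists, 1.63, with 8 of 11 rising and 0 falling. Gbp2 rose by 4.16, Gbp3 by 3.54, Gbp5 by 2.69 and the transcription factor Irf1 by 1.48 on the log2 scale. Their summed level was 76.0 to 149 FPKM in control and 414 to 778 FPKM in Villin-Wls cKO tumors. The part of this list in the changes of the receptor genes was not tested.

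**Figure D3:**
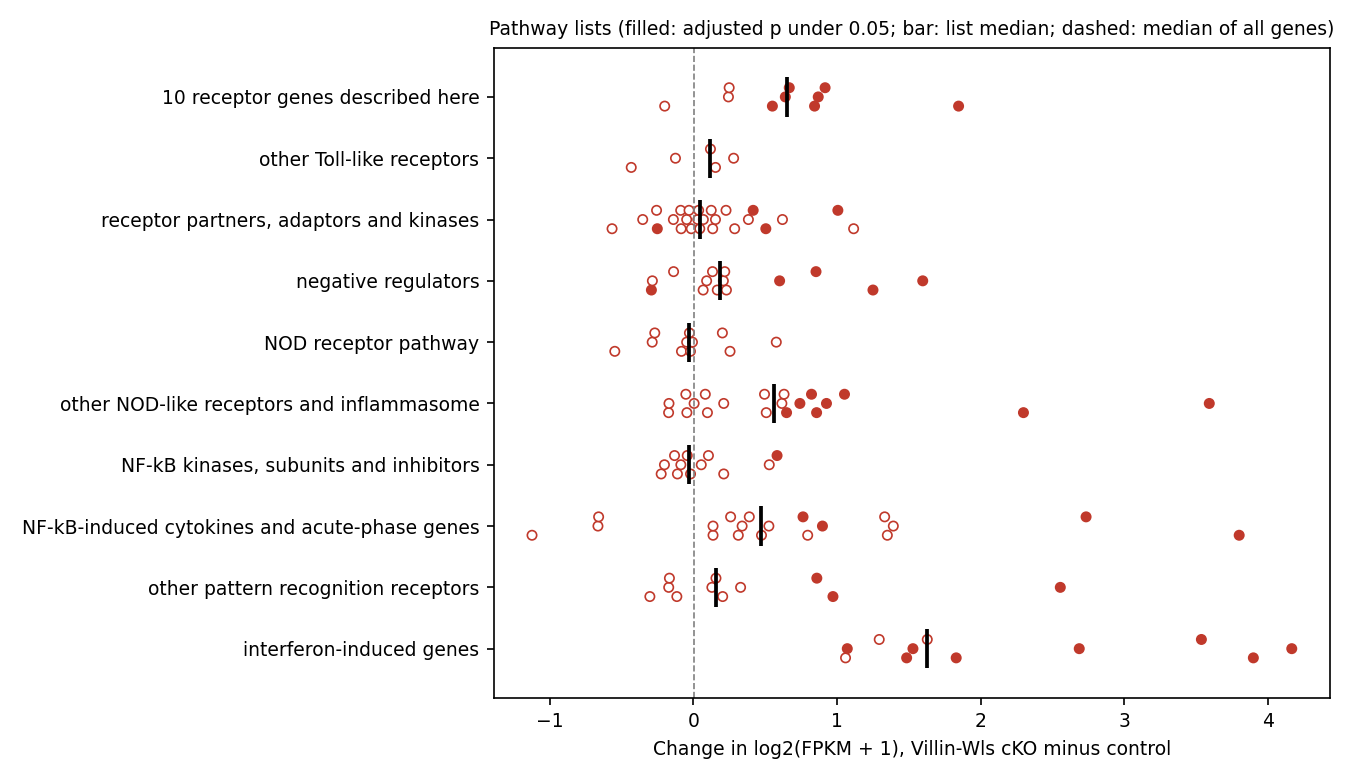
Log2 change of log2(FPKM + 1), Villin-Wls cKO minus control, for every gene tested in the 10 receptor genes and the 9 pathway lists, with filled points for genes past the threshold a bar at the list median and a dashed line at the median of all genes. The receptor genes have a median of 0.65, the interferon-induced genes 1.63 and the NOD pathway genes -0.03.

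Since receptor transcripts in whole tumors come from several cell types, markers of these cells were set beside them. Of 11 macrophage and monocyte markers 0 passed with limma, with a median log2 change of -0.02, and Adgre1, Csf1r and Cd68 had ratios of means of 1.01, 1.07 and 0.984. Over the whole list the ratios ran from 0.832 for Lyz2 to 1.58 for Mrc1, for which limma gave an adjusted p of 0.173. The 11 markers summed to 353 to 951 FPKM in control and 307 to 620 in Villin-Wls cKO tumors. Lyz2 was the largest part of this sum, averaging 312 FPKM in control and 260 in Villin-Wls cKO tumors. Of 7 neutrophil markers 1, Mmp9, fell past the threshold and 0 rose past it. The other 6 all had a positive change that did not pass, and the list median was 0.85. The neutrophil sum was 239 to 799 in control and 596 to 1250 FPKM in Villin-Wls cKO tumors.

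Of 8 T cell markers, Cd3d, Cd3e, Cd3g and Cd8a rose. Cd3d, Cd3e and Cd8a averaged 0.481, 0.364 and 0.0923 FPKM in control tumors and entered the test through their Villin-Wls cKO values, so their count gives no support of its own. The T cell sum went from 7.29 to 14.9 FPKM in control to 14.7 to 37.6 in Villin-Wls cKO tumors. Among 7 B and plasma cell markers Mzb1 and Xbp1 rose, with sums of 106 to 247 and 207 to 536 FPKM. Most of these sums came from Xbp1, averaging 101 and 153 FPKM, and from Jchain, which averaged 50.9 and 197 and did not pass. Cd79a, Cd79b and Ms4a1 averaged at most 1.32 FPKM in either group and did not pass. Which cells gave the Xbp1 transcripts was not tested. Of 10 epithelial markers Krt20 alone rose, from 176 ± 48.7 to 327 ± 67.9 FPKM, with a list median of 0.27. Of 8 fibroblast, 6 endothelial and 7 stratified squamous markers, 0 passed with limma, and the medians were 0.08, -0.01 and 0.91. The squamous markers summed to 42.3 to 215 FPKM in control and 12.9 to 1349 in Villin-Wls cKO tumors. Villin-Wls cKO tumors 2 and 3 had 1048 and 1349, and the other Villin-Wls cKO tumors had at most 52.9. In 0 of these lists was a marker at 0 in every tumor, and the part of these cell types in the changes of the receptor genes was not tested.

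**Figure D4:**
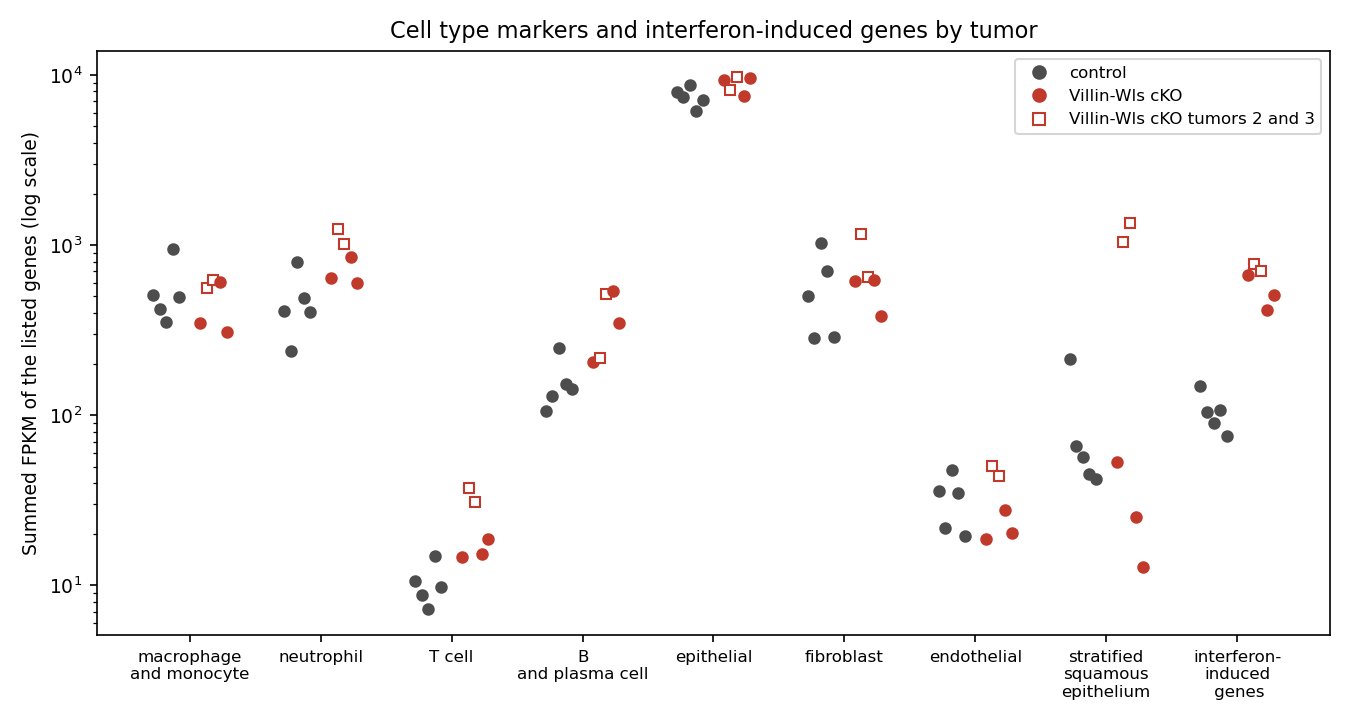
Summed FPKM of each cell type marker list and of the interferon-induced genes on a log axis, with 1 symbol per tumor, 5 control and 5 Villin-Wls cKO, and open squares for Villin-Wls cKO tumors 2 and 3. The macrophage and monocyte sums of the groups overlap, and the T cell sums are higher in Villin-Wls cKO tumors with only a narrow overlap at 14.7 to 14.9 FPKM.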

How the data were processed

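Stranded mRNA libraries of 10 tumors, 5 per group, had been sequenced. According to the submitters' processing notes and the study's methods, the authors used FastQC, TopHat2 2.1.1 with GRCm38.p5, Cufflinks 2.2.1 and Cuffdiff at default parameters, and the deposited values are FPKM per gene and tumor. The annotation and the strand setting of the quantification are not given in the sources used here. All value columns were matched to tumors by their labels. In a search of 257 low genes at most 2 shared 1 ratio, so depth and counting error are unknown, and precision rests on 5 tumors per group.

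Values were analysed as log2(FPKM + 1), for genes averaging 0.5 FPKM or more across the 10 tumors, in limma 3.58.1 (R 4.3.3) with an eBayes trend and no covariate, and p-values were Benjamini-Hochberg adjusted over all 16757 genes tested at a threshold of 0.05. A pseudocount understates changes of low genes. Pairs of genes were compared by exact two-sided permutation of 252 arrangements. The fit was tested on simulated data. Python 3.11.15 with matplotlib 3.10.9, pandas 2.3.3 and numpy 2.4.6 served for summaries and plots. Of the names, 2419 share all their values with another, though none of the 10 receptor genes does. The alternatives were another pseudocount, filter, scaling or variance setting, a replicate block, and leaving out tumors. The receptor genes and gene lists were chosen with earlier results of these data known. All receptor genes are named, as are, from each pathway list, up to 4 genes past the threshold per direction with the smallest adjusted p, any gene counted as 1 of 5 or fewer, and for each receptor gene the 3 genes most like it, of which 1 is not reported here. Ly96, Ripk2, Adgre1, Csf1r and Cd68 were named after their values were seen, for their role. Mrc1 and Lyz2 were named for their ratios, and Jchain, Cd79a, Cd79b and Ms4a1 for their levels, also after their values were seen.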

Additional observations from a re-analysis of the deposited data

Results flagged for a closer look

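In 4 of 70 groups of 5 tumors, 1 tumor lay farther from the rest than Dixon's 95% limit allows, and chance alone gives about 1 in 20. Myd88 was 23.6 FPKM in control tumor 3 and 18.1 to 19.4 in the other control tumors. Control tumor 3 also had the outlying values of Il1a, 7.75 FPKM against 3.24 to 4.13, and of Tnfaip3, 15.7 FPKM against 10.1 to 11.4. Ciita was 0.875 FPKM in control tumor 1 and 0.408 to 0.508 in the other control tumors.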

How the results depend on the processing

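The 7 receptor genes past the threshold were 3 without Villin-Wls cKO tumors 2 and 3, and 4 to 7 when 1 tumor was left out. Pathway genes past it, 33 in all, were 21 and 25 to 35, and all genes, 1822 in all, were 1092 and 1231 to 1983. The change of Tlr5 turned to -0.090 without Villin-Wls cKO tumors 2 and 3. With 1 tumor left out, the Tlr2 and Tlr1 pair ranged from -1.27 to -0.96 and passed without control tumor 3 (adjusted exact permutation p = 0.0317) and without Villin-Wls cKO tumor 3 (adjusted exact permutation p = 0.0476). The Tlr3 and Myd88 pair ranged from 0.32 to 0.49 and passed without Villin-Wls cKO tumor 3 (adjusted exact permutation p = 0.0476). The Cd14 and Tlr4 pair ranged from -0.025 to 0.28 and turned negative without control tumor 1. The Nod2 and Nod1 pair, -0.03, ranged from -0.15 to 0.13, turned to 0.025, 0.049 and 0.13 without control tumor 3, Villin-Wls cKO tumor 3 or Villin-Wls cKO tumor 5, and was 0.065 without Villin-Wls cKO tumors 2 and 3 and 0.29 with a pseudocount of 0.1. The cause of these shifts was not tested. A minimum mean of 5 FPKM removed Tlr5, Nod1 and Nod2, which then have no value, and 5 genes passed.

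Control and Villin-Wls cKO tumors share replicate numbers, and correlations of same-numbered tumors after removing group means ran from -0.087 to 0.16. Yet 5 of 10 tumors correlated best with their own number, so whether the numbers pair the tumors is not settled. With a replicate block, 7 receptor genes, 30 pathway genes and 1627 of all genes passed, and the pairs had the same changes, tested by sign flips that cannot pass with 5 tumors. Scaling each tumor to 1 FPKM sum or to median ratios gave 7 receptor genes, and quantile normalization gave 6. All 7 kept a positive change in every alternative that gave them a value. Read depth is unknown, which limits what can be said of Tlr5 and Nod2.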

Other observations

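The genes whose levels followed each receptor gene most closely over the 10 tumors, after subtracting each group's mean of log2(FPKM + 1), were ranked among genes with a mean of at least 1 FPKM. Nlrp6 was most like Etl4 (r = 0.98), Cpd and Kcnk5 (both r = 0.96), Tlr1 most like Pafah1b3 (r = 0.98), Ppap2c (r = 0.97) and Prkag1 (r = 0.96), and Tlr3 most like C330027C09Rik (r = 0.95) and Fcor (r = 0.94). Cd14 was most like Mid1, Mrm1 and B4galt3, Tlr4 most like RP24-137F10.1, Kin and Smarcal1, and Tlr5 most like Vat1, Rarg and Wnt7b. Nod2 was most like Ccdc80, St3gal2 and Atox1, Nod1 most like Chpf2, Mir671 and 2810428I15Rik, Tlr2 most like AC156028.2, Gm24016 and Rps20, and Myd88 most like Sept1, Atrip and Trex1. Chpf2 and Mir671, Gm24016 and Rps20, and Atrip and Trex1 have identical values in the table. With 10 tumors and 15464 or 15465 genes ranked, the highest r is a description only. Among the 10 receptor genes, Nlrp6 and Tlr1 had r = 0.85, Nod2 and Cd14 r = 0.78 and Nod1 and Tlr5 r = 0.77, and these points share their libraries and scaling.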
